A study of Mus musculus with 3 samples.

Results

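Resting CD8 T cells with transcripts of both Tcf7 and Pdcd1 were examined among live CD45+ leukocytes of subcutaneous KP1 tumors, an Rb/p53 mutant mouse model of small-cell lung cancer. They were chosen by their own UMI counts, a UMI (unique molecular identifier) standing for 1 captured transcript. A barcode needed at least 2 UMIs over 6 T cell genes (Cd3d, Cd3e, Cd3g, Trac, Trbc1, Trbc2), fewer than 5 over 5 myeloid genes (Lyz2, C1qa, C1qb, S100a8, S100a9), at least 1 of Cd8a or Cd8b1, none of Cd4 or Foxp3, and fewer than 3 of Mki67 and Top2a. This gate defined 10940 resting CD8 cells, and at least 1 UMI each of Tcf7 and Pdcd1 left 843 Tcf7+Pdcd1+ cells among 71909 barcodes kept in all. Tcf7 and Pdcd1 themselves are therefore given as description only.

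The 3 libraries came from wild-type B6129SF1/J (F1) mice of 5 to 6 weeks at purchase, in which 500000 KP1 cells had been implanted subcutaneously. All mice received a cytokine intraperitoneally, at 3 µg each time on alternate days, first on day 7 and last on day 19, when tumors were taken. The cytokine was mono-IL-10 (labelled Supermono-10), the IL-10/2-Trikine, an engineered protein that joins IL-10 and IL-2 receptor signaling, or the latter given together with an antibody against PD-1 (200 µg on days 7, 11, 15 and 19), here called the combination. There was 1 library per treatment and none without treatment, the number of mice behind each was not given, and the protocol can also be read as giving the antibody to every group. The sample titles and treatments, which were followed here, name the antibody in the combination alone. The labelled cell type was mouse T cells, while the sort was for all CD45+ cells. Intervals between libraries cover counting error only, and no difference between treatments could be tested.

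TCF1, the protein of Tcf7, maintains a self-renewing state in CD8 T cells, and PD-1, the protein of Pdcd1, is an inhibitory receptor that persists under chronic antigen. Cells with both are known as progenitor-exhausted: they renew themselves, seed terminally exhausted cells that carry TIM-3 and cytotoxic granules, and divide after PD-1 blockade. SLAMF6, the IL-7 receptor and the transcription factor TOX are among their usual marks, and the lymph node homing receptor CCR7 marks the less differentiated end.

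The mono-IL-10 library held 235 Tcf7+Pdcd1+ cells, the IL-10/2-Trikine library 268 and the combination library 340. Median depth was 4479, 3429 and 3596.5 UMIs per cell in that order, and all kept barcodes had a median of 4774, 5562 and 4273. The libraries shared 137 to 180 kept barcode sequences per pair. Many cells stood at the edge of the rule: 46.8%, 49.3% and 57.6% had a single Tcf7 UMI, and 62.6%, 45.9% and 47.6% a single Pdcd1 UMI, in the same order of libraries. A further 72, 237 and 71 cells met every other condition but held 3 or more UMIs of Mki67 and Top2a, genes of dividing cells, 13, 12 and 2 of them only 3 or 4. Among the Tcf7+Pdcd1+ cells themselves 70.6%, 79.1% and 73.5% had no UMI of Mki67 or Top2a, and the others had fewer than 3. A cell without a Tcf7 UMI may still have held the transcript, so the classes below are classes of detection.

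Cd8b1, which is not shared with dendritic cells as Cd8a is, was detected in 96.2%, 92.2% and 90.3% of the cells, but it is part of the gate. A UMI of the markers that the rule did not use was found in part of the cells only, without correction for depth. A cell without such a UMI may still have held the transcript. Tox was detected in 62.1%, 53.4% and 55.3%, Il7r in 51.1%, 56.0% and 53.5%, and Slamf6 in 39.6%, 44.8% and 36.8%. Gzmb, the cytotoxic protease granzyme B, was detected in 64.7%, 67.2% and 78.2%. With each cell thinned to 2000 UMIs these shares were 54.5%, 60.6% and 70.3%, against 4.81%, 7.73% and 12.2% of macrophage barcodes, described further on. For this and later shares of these cells with a gene at equal depth, the cells were chosen on unthinned counts, at the unequal depths given above. Cxcr5 was near the limit of detection in all 3 libraries.

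RNA of other cells was present at low level. Over 15 myeloid markers the summed level was 679, 494 and 542 CPM (counts scaled to a total of 1000000, from the UMIs summed over the Tcf7+Pdcd1+ cells of a library), most of it Ctss and Cst3. Of these markers 14, 12 and 15 had a UMI, with Csf1r at 0 in the mono-IL-10 library and Adgre1, Ms4a7 and Mrc1 at 0 in the IL-10/2-Trikine library. Over 10 B cell markers it was 359, 153 and 158 CPM, led by Igkc and Ighm. Over 11 dendritic cell markers it was 1038, 432 and 437 CPM, mostly Cd74 and H2-Aa, and 8, 6 and 8 of them had a UMI. Clec9a, Cd209a and Siglech were at 0 in every library, Flt3 and Xcr1 only with the IL-10/2-Trikine. Over 8 markers of CD4 cells it was 892, 1054 and 1381 CPM, nearly all Ctla4 and Ikzf2, which CD8 cells also use. Over 8 γδ T cell markers it was 74.5, 181 and 148 CPM, mostly Trgc2, with Il17a at 0 throughout. Over 12 neuroendocrine and epithelial markers of the tumor it was 33.5, 22.9 and 9.64 CPM. The part of such RNA in the differences below was not tested. Of 14 general T cell genes outside the rule, 0 were above 0 for the IL-10/2-Trikine relative to mono-IL-10 (median log2 ratio -0.30) and 12 for the combination over the IL-10/2-Trikine (median 0.09), and none passed 2-fold in either comparison.

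The first question was how common these cells were under each treatment. Without correction for depth they made up 6.04% (95% Clopper-Pearson interval 5.31 to 6.83) of resting CD8 cells with mono-IL-10, 8.63% (7.66 to 9.67) under the IL-10/2-Trikine and 8.63% (7.77 to 9.55) under the combination. After every cell was thinned to 2000 UMIs, which left out 169, 331 and 403 shallower cells, the shares were 92 of 3723 (2.47%, 2.00 to 3.02), 138 of 2776 (4.97%, 4.19 to 5.85) and 171 of 3538 (4.83%, 4.15 to 5.59). The rest of the gate was applied to unthinned counts, at median depths of 4005, 3402 and 3294 UMIs in resting CD8 cells. With Tcf7 and Pdcd1 at equal depth, the share was 2.01 times as high with the IL-10/2-Trikine as with mono-IL-10 (1.55 to 2.61). The combination differed from the IL-10/2-Trikine by less than the counting interval (ratio 0.972, 0.781 to 1.21). These shares come from 1 random draw per cell. The exact mean over all draws was 2.35%, 4.65% and 4.5%, with ratios of 1.98 (1.52 to 2.59) and 0.967 (0.771 to 1.21), and at 1000 UMIs per cell the first ratio was 2.09 (1.37 to 3.19) by that mean but 1.48 (0.971 to 2.27) in 1 draw.

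The size of the first ratio depended on depth, denominator and the exclusion of dividing cells. Without thinning it was 1.43 (1.21 to 1.69) within resting CD8 cells and 1.12 (0.938 to 1.33) among all kept barcodes (1.06%, 1.18% and 1.26%), where the interval includes 1. With the mean over draws it was 1.33 (1.01 to 1.74) among kept barcodes of at least 2000 UMIs. With dividing cells counted in, there were 307, 505 and 411 cells with both genes, 1.38%, 2.22% and 1.52% of kept barcodes, so the IL-10/2-Trikine library had the highest share. The ratios without thinning were then 1.61 (1.4 to 1.85) for the IL-10/2-Trikine relative to mono-IL-10 and 0.685 (0.602 to 0.780) for the combination over the IL-10/2-Trikine. By the mean over draws they were 1.54 (1.20 to 1.98) and 0.948 (0.765 to 1.18), so the last difference was not detectable at equal depth. Resting CD8 cells were 42.8%, 22.1% and 27.1% of the barcodes with T cell genes and low myeloid counts, so a share within them need not match the share in the whole sample.

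**Figure D1:**
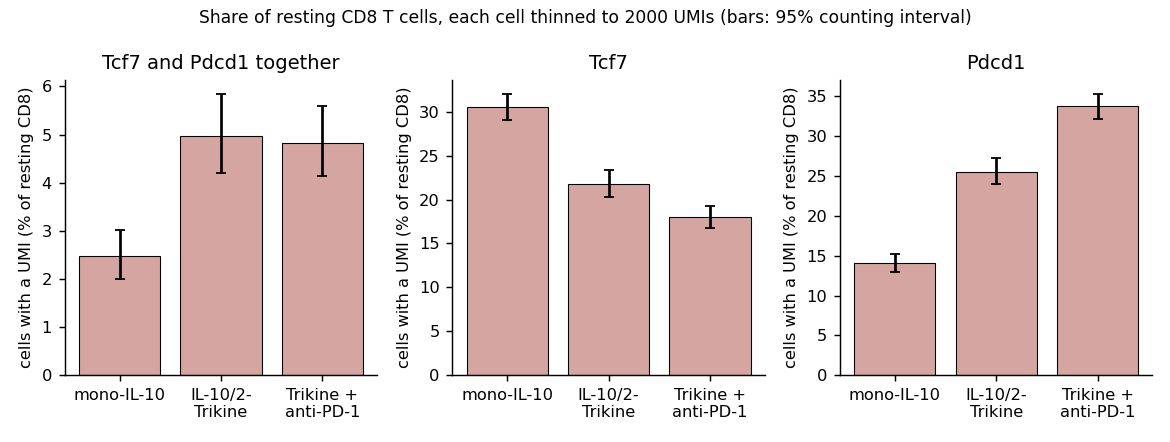
Share of resting CD8 T cells (%) with a UMI of Tcf7 and Pdcd1 together, of Tcf7 and of Pdcd1, after thinning each cell to 2000 UMIs, in the 3 libraries, with 95% counting intervals as error bars. Cells with both genes were lowest with mono-IL-10 (2.47%), while Tcf7 decreased from 30.5% to 18.0% and Pdcd1 increased from 14.0% to 33.7% across the 3 bars.

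The genes behind the rule went opposite ways. In thinned resting CD8 cells Tcf7 was detected in 30.5%, 21.8% and 18.0%, and Pdcd1 in 14.0%, 25.5% and 33.7%. Both sit well above the shares in macrophage barcodes, taken as the background, which held Tcf7 in 0.364% to 0.451% and Pdcd1 in 1.70% to 2.03%, and both together in 0 of 3993, 0 of 1708 and 1 of 3841 barcodes (upper 95% Clopper-Pearson bounds of 0.0923% and 0.216% for the counts of 0), at a median depth before thinning of 6983, 5567.5 and 5708.5 UMIs against 4005, 3402 and 3294 in resting CD8 cells. Among cells with Tcf7, Pdcd1 was found in 8.10%, 22.8% and 26.8%, a ratio of 2.82 (2.21 to 3.60) for the IL-10/2-Trikine relative to mono-IL-10 and 1.17 (0.967 to 1.43) for the combination over the IL-10/2-Trikine. Among cells with Pdcd1, Tcf7 was found in 17.6%, 19.5% and 14.3%, with ratios of 1.11 (0.872 to 1.40) and 0.737 (0.601 to 0.904). The share with both genes was 0.577, 0.895 and 0.797 times the product of the single shares. Each ratio was below 1 in this draw, but they carry no interval and concern the genes of the rule. Whether they differ from independence was not tested.

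Tcf7+Pdcd1+ cells were next set against the cells of the same gate that had Pdcd1 but no Tcf7 UMI (681, 848 and 1403 cells), whose median depth of 5189, 4103.5 and 3620 UMIs was not lower than theirs. UMIs were summed per class and library and fitted with edgeR's quasi-likelihood test with library as a term, at a Benjamini-Hochberg adjusted p under 0.05. Since the 3 libraries had different treatments, the spread includes any difference of the classes between treatments. Tcf7+Pdcd1+ cells carried more of the homing, memory and progenitor genes and less of the cytotoxic genes: of 9765 genes, 489 were higher (5.01%) and 498 lower (5.1%), 489 and 496 of them in the same direction in all 3 libraries. The counts were 198 and 174 without the IL-10/2-Trikine library, 157 and 175 without the combination library, 180 and 236 after thinning and 66 and 40 without the library term.

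The progenitor surface molecules stood out, with 11 of 16 measured higher and none lower (median log2 difference 0.95, against 0.00 over all genes). Slamf6, an adhesion receptor of progenitor cells, was at 131, 177 and 131 CPM in Tcf7+Pdcd1+ cells with mono-IL-10, the IL-10/2-Trikine and the combination, and at 48.1, 58.0 and 46.7 CPM in cells without Tcf7. The classes did not overlap, and the log2 difference was 1.47 ± 0.13 (SE; edgeR quasi-likelihood test, Benjamini-Hochberg adjusted p = 1.79e-05). Il7r, the survival receptor for IL-7, was higher by 1.03 ± 0.07 (adjusted p = 2.88e-06), and the follicle homing receptor Cxcr5, at few UMIs, by 1.81 ± 0.44 (adjusted p = 0.0188). Icos (-0.11, adjusted p = 0.556) and the chemokine gene Xcl1 (1.08 ± 0.41, adjusted p = 0.116) did not pass the test.

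Of 14 transcription factors of naive, memory and progenitor cells, 7 were higher and none lower (median 0.51): Lef1, Bach2, Klf3, Foxp1, Myb, Bcl6 and Zfp36l2. Bach2, a repressor of effector genes, was at 283, 274 and 333 CPM against 104, 96.2 and 118 CPM (1.45 ± 0.10, adjusted p = 1.75e-06), and Lef1, the close relative of Tcf7, was higher by 0.71 ± 0.19 (adjusted p = 0.0277). Myb, which maintains the self-renewing exhausted pool, was higher by 1.01 ± 0.17 (adjusted p = 0.00201), while Id3 (1.16 ± 0.41, adjusted p = 0.0882) missed the threshold. Lymph node homing and naive T cell genes were higher in 7 of 13 (median 0.74). Among them Ccr7, the lymph node chemokine receptor, was at 122, 204 and 78.5 CPM against 23.9, 36.2 and 10.5 CPM. The classes did not overlap, and the log2 difference was 2.51 ± 0.17 (adjusted p = 1.97e-06).

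Cytotoxic and effector genes lay on the other side, with 13 of 20 lower and none higher (median -0.64). Gzmb was at 2398, 2172 and 2856 CPM in Tcf7+Pdcd1+ cells and at 7080, 7962 and 8123 CPM in cells without Tcf7, with no overlap (-1.68 ± 0.11, adjusted p = 1.28e-06). Gzma, a second granule protease, was lower by -1.58 ± 0.12, the pore-forming Prf1 by -1.42 ± 0.14 and the tissue residency receptor Cxcr6 by -1.49 ± 0.09 (adjusted p = 5.53e-06, 3.02e-05 and 1.07e-06). Without the library term Gzma did not pass the test (adjusted p = 0.203). Gzmk, the granzyme of early effector and memory cells, differed least among these, at -0.61 ± 0.08 (adjusted p = 0.000244). Of 15 inhibitory receptors and ligands, 6 were lower and none higher: Havcr2, which encodes TIM-3 (-1.88 ± 0.17, adjusted p = 1.79e-05), Lag3 (-1.42 ± 0.21, adjusted p = 0.000894), Entpd1, Ctla4, Cd244a and Cd38. Tigit did not pass the test (-0.42 ± 0.16, adjusted p = 0.107).

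Of 17 transcription factors of effector and exhausted cells only Prdm1, Ikzf3 and Id2 were lower and none was higher. Id2, the effector counterpart of Id3, was lower by -0.87 ± 0.08 (adjusted p = 1.79e-05). Tox, which establishes the exhausted state, was at 497, 398 and 376 CPM against 432, 304 and 407 CPM in cells without Tcf7, and the difference of 0.11 ± 0.12 did not pass the test (adjusted p = 0.642). Among 14 cytokine and chemokine genes Lta was higher and Il10, Csf1, Ccl5 and Ccl4 were lower, Ccl4 by -1.12 ± 0.22 (adjusted p = 0.00659). Ifng did not pass the test in the summed counts (-0.05 ± 0.32, adjusted p = 0.947), but 5 cells held 75.7% of its UMIs in the mono-IL-10 library.

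Of 21 T cell receptor response genes, 5 were higher (Nr4a3, Cd69, Nfkbid, Crtam and Rel) and none lower. Of 21 cytokine receptors and JAK-STAT components, Il18r1, Stat4, Jak1, Jak2, Stat5a and Stat5b were higher and Il10ra, the ligand-binding chain for IL-10, was lower (-0.57 ± 0.14, adjusted p = 0.0208). Of 15 JAK-STAT feedback and target genes, Socs3, Socs1 and Pim2 were higher, Socs3 by 0.52 ± 0.09 (adjusted p = 0.00329). A set of 10 genes that the study had drawn for STAT5 signaling in another tumor model, here not independent evidence, had 8 lower and 1 higher. Among the lower ones Gzma, Gzmb, Prf1 and Nkg7 encode granule proteins, and the single one higher, Klra7, turned to -0.69 after thinning. Interferon-induced genes (1 of 29 higher, 2 lower) and MHC class I and guanylate-binding protein genes (none of 31 higher, 3 lower) mostly did not pass the test, while 3 of the 4 antiviral Ifitm genes were lower. Of 25 S phase genes, 1 was higher and 3 lower (median -0.28, 2 above 0), of 24 G2/M genes 1 and 3 (median -0.51, 6 above 0), and of 15 immediate early and heat shock genes only Atf3 was lower.

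Among the genes with the largest differences outside the lists were Aff3, a nuclear protein of the AF4 family (2.61 ± 0.19), and Cxcl10, a chemokine induced by interferon-γ (2.31 ± 0.17), followed by Ssbp2, Fgf13, Emb, Adk and Parp8 at 1.29 to 1.48. On the lower side Neb, which encodes a muscle filament protein, differed by -2.01 ± 0.18, and AA467197, the metallothionein gene Mt1 and Tmem163 by -1.29 to -1.20. Of the 24 genes named by size of difference, 18 stayed under the threshold in every alternative fit, and Il10, Gzma, AA467197, Mt1 and Tmem163 were among the others. Among markers of other cells none of 12 myeloid and none of 9 B cell genes were called (medians -0.16 and 0.37). Of 6 dendritic cell genes only H2-Ab1 was lower, with a list median of -0.65, of 4 γδ T cell genes Trgc2 was lower by -1.0 ± 0.21, and of 3 tumor genes Calca was lower by -3.70 ± 0.48. Of 13 NK cell genes, Klra7 and Ncr1 were higher and Klre1 and Gzma lower.

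**Figure D2:**
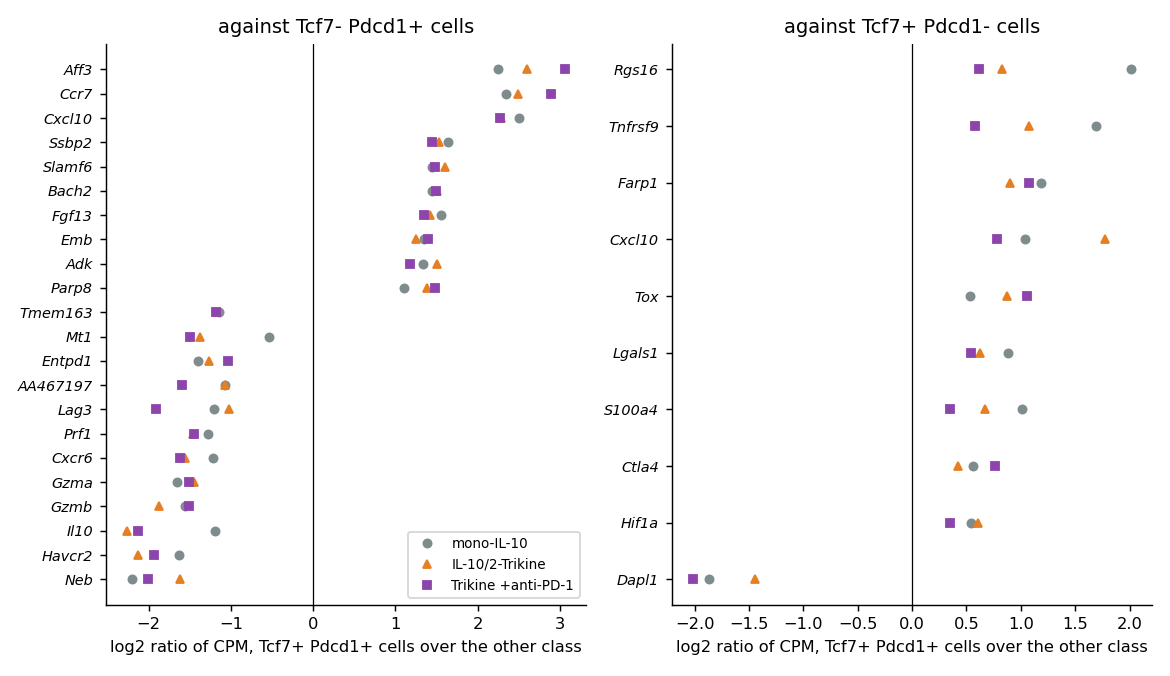
Log2 ratio of CPM in Tcf7+Pdcd1+ cells over Pdcd1+ cells without Tcf7 (left) and over Tcf7+ cells without Pdcd1 (right), for genes named by size of difference, with 1 point per library. Genes were named only where the 3 libraries lay on the same side of 0. On the left Aff3 is highest at a fitted 2.61 and Neb lowest at -2.01, and on the right Rgs16 is highest at 1.31 and Dapl1 lowest at -1.86.

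Against cells of the gate with Tcf7 but no Pdcd1 UMI (1345, 623 and 608 cells, median depth 3809, 3068 and 3167 UMIs), far fewer genes passed: 14 higher (0.143%) and 2 lower (0.0205%), with 535 and 513 at an unadjusted p under 0.05. This contrast uses the same sums of Tcf7+Pdcd1+ cells as the one above. Tox was at 497, 398 and 376 CPM against 343, 217 and 181 CPM, a log2 difference of 0.78 ± 0.13 (edgeR quasi-likelihood test, Benjamini-Hochberg adjusted p = 0.0289). Of 21 T cell receptor response genes only Tnfrsf9, which encodes the costimulator 4-1BB (1.11 ± 0.19, adjusted p = 0.0347), and Tnfrsf4, which encodes OX40 (1.85), were higher and none was lower (list median -0.04). The inhibitory receptor Ctla4 (0.57 ± 0.07, adjusted p = 0.0053) and Rgs16, a brake on G protein signaling (1.31 ± 0.21, adjusted p = 0.0289), were higher as well.

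Cxcl10 (1.07 ± 0.16), Farp1 (1.09), Lgals1 (0.67), S100a4 (0.67) and the hypoxia factor Hif1a (0.49) were also higher. Dapl1, a gene of naive and stem-like CD8 cells, was lower, at 38.7, 7.63 and 4.13 CPM against 143, 21.7 and 17.8 CPM (-1.86 ± 0.18, adjusted p = 0.000409). Slamf6 (-0.11 ± 0.13, adjusted p = 0.807), Il7r (-0.37 ± 0.07, adjusted p = 0.0678), Lef1 (-0.60 ± 0.18, adjusted p = 0.257) and Gzmb (0.55 ± 0.11, adjusted p = 0.0678) did not pass the test. After thinning, 1 gene was higher and 4 were lower, and Cxcl10 and Dapl1 were among both sets of calls. None of the 11 genes named for this contrast stayed under the threshold in every alternative fit.

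**Figure D3:**
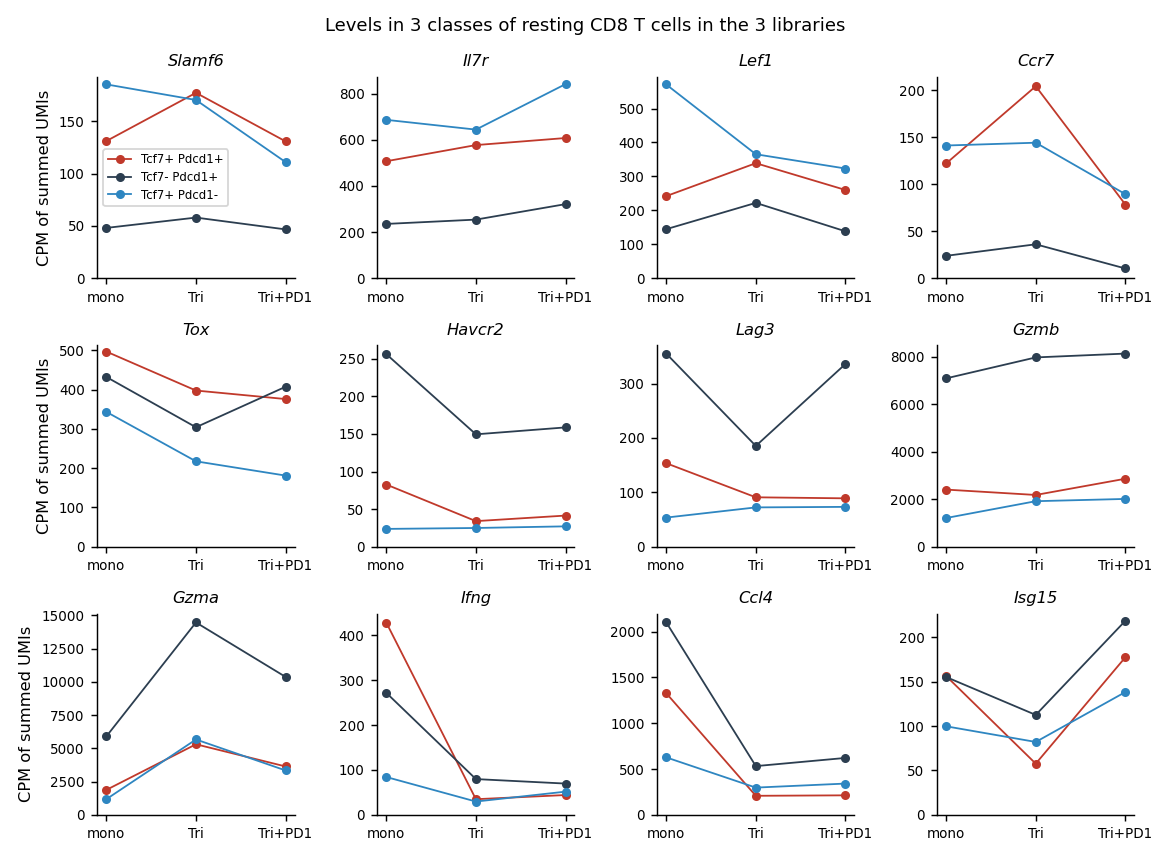
Level (CPM of summed UMIs, linear axis from 0) of 12 genes in the 3 libraries, for Tcf7+Pdcd1+ cells (red), Pdcd1+ cells without Tcf7 (dark) and Tcf7+ cells without Pdcd1 (blue), with 1 point per class and library and no error bars. Slamf6 and Il7r in red lie near or below blue and far above dark, Ccr7 in red lies far above dark, and Gzmb and Havcr2 in red lie closer to blue than to dark.

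Tcf7+Pdcd1+ cells were also described by their number of Tcf7 UMIs, a value that the rule used, so no test was made. Over all 3 libraries 438 cells had 1 Tcf7 UMI, 189 had 2 and 216 had 3 or more, at median depths of 3416.5, 3814 and 4854 UMIs. Along these groups Slamf6 was at 103, 153 and 203 CPM and Ccr7 at 101, 135 and 172 CPM, while Gzmb was at 3227, 2387 and 1466 CPM and the chemokine Ccl5 at 13840, 12163 and 7835 CPM. Within each library, too, Slamf6 was higher and Gzmb and Ccl5 were lower in cells with 3 or more Tcf7 UMIs than in those with 1. For Gzmb the combination library was at 3035, 3509 and 1759 CPM along the groups. The pooled order of Ccr7 did not hold in every library, with 147, 157 and 73.4 CPM with mono-IL-10, 88.2, 194 and 351 CPM with the IL-10/2-Trikine and 74.0, 77.4 and 89.9 CPM with the combination. Tox was at 365, 447 and 496 CPM over all libraries but at 371, 430 and 330 CPM with the combination. The groups also differed in depth and in their mix of libraries, whose part was not tested.

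At 2000 UMIs per cell a UMI of Havcr2 or Entpd1, genes of terminal exhaustion, was found in 19.5% (14.6 to 25.2), 14.7% (10.6 to 19.7) and 17.5% (13.5 to 22.1) of Tcf7+Pdcd1+ cells with mono-IL-10, the IL-10/2-Trikine and the combination. The intervals overlap, and macrophages express these genes themselves.

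Within Tcf7+Pdcd1+ cells, the IL-10/2-Trikine library was then compared with the mono-IL-10 library. Gzma, Klrk1 and several Ly49 receptor genes were higher with the IL-10/2-Trikine, while Ifng, Ccl3, Ccl4 and 8 of 26 interferon-induced genes were at least 2-fold lower. Pdcd1+ cells without Tcf7 and Tcf7+ cells without Pdcd1 had log2 ratios of the same sign. These were 1.30 and 2.27 for Gzma, 2.73 and 2.16 for the Ly49 gene Klra7, -1.77 and -1.50 for Ifng, -2.02 and -1.43 for Ccl3 and -1.98 and -1.08 for Ccl4. No test compared the classes, so these changes are not shown to be particular to Tcf7+Pdcd1+ cells. Of 8378 genes with at least 20 UMIs in the pair, 153 were at least 2-fold higher (1.83%) and 310 at least 2-fold lower (3.7%). In 115 and 249 of these the 95% counting interval excluded 0, and in 18 and 43 the whole interval lay past 2-fold. These intervals take each UMI as independent and do not cover the clustering of UMIs in a few cells. Taken as a mean over cells, the log2 ratios of Ifng (-2.86), Gzma (1.68) and Ifitm1 (1.59) fell outside their intervals given below. Those of Ccl4 (-2.71) and Klra7 (3.38) fell inside. In counts simulated for this pair with counting error alone, 152 of 8164 unchanged genes passed 2-fold, higher and lower genes counted together. The simulation had no clustering of UMIs in cells, so it does not cover calls that arise from it. The median over all genes was -0.07 on the log2 scale.

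Of 19 effector genes, 2 were 2-fold higher and 3 lower (median -0.14). Gzma was at 1873, 5306 and 3637 CPM with mono-IL-10, the IL-10/2-Trikine and the combination, a log2 ratio of 1.5 (95% counting interval 1.44 to 1.57) for the IL-10/2-Trikine relative to mono-IL-10. At equal depth it was detected in 39.8%, 59.0% and 65.9% of the cells. Macrophage barcodes held it in 4.08%, 16.5% and 19.9%, so the background moved in the same direction, and its part was not tested. The activating receptor Klrk1 (NKG2D) was at 297, 628 and 477 CPM (1.08, 0.90 to 1.26) and Klrd1 (CD94) at 442, 837 and 627 CPM (0.92, 0.77 to 1.07), and both were highest with the IL-10/2-Trikine. Gzmb did not share this pattern, at 2398, 2172 and 2856 CPM (-0.14), nor did Prf1 (-0.58).

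Of 12 NK cell genes, 7 were 2-fold higher with the IL-10/2-Trikine and 1 lower, with a summed level of 2181, 6000 and 4155 CPM, most of it Gzma. The γδ T cell genes moved the same way, 4 of 4 at least 2-fold higher (median 1.84), with the sums given above, and their part was not tested. The Ly49 receptor gene Klra7 was at 12.7, 141 and 59.9 CPM, in 4, 32 and 25 cells (3.44, 2.75 to 4.29), and Klra6, Klra1 and Klra5 had log2 ratios of 3.14, 2.32 and 2.16, from 3, 8 and 4 cells with mono-IL-10 and 27, 28 and 10 with the IL-10/2-Trikine. With the IL-10/2-Trikine, 5 cells held 36.1% of the UMIs of Klra7, 46.6% of Klra6, 47.6% of Klra1 and 75% of Klra5. These genes are close paralogs whose reads may be split between them, so their separate values are uncertain. Ly6c2, a surface protein of memory and effector CD8 cells, was at 352, 728 and 582 CPM (1.05, 0.88 to 1.21) and was detected at equal depth in 37.2%, 66.1% and 50.6% of cells, against 2.85% to 4.22% of macrophage barcodes. Of the 4 Ifitm genes, 2 were higher (median 0.86, and 0.13 to 1.95 over the alternatives), Ifitm1 at 188, 475 and 440 CPM (1.33, 1.12 to 1.56). Ifitm1 was found in 19, 59 and 79 cells, and 5 cells held 68.8% of its mono-IL-10 UMIs and 40.3% of its IL-10/2-Trikine UMIs. Of the 10 STAT5 set genes, 3 were 2-fold higher and none lower, with a median of -0.15.

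Cytokines and chemokines were at least 2-fold lower in 8 of 12 and in none higher, with a median of -1.64 that ranged from -2.15 to -0.32 over the alternatives. Ifng, the main effector cytokine of CD8 cells, was at 428, 34.8 and 44.0 CPM (-3.61, -4.12 to -3.17), high in the mono-IL-10 library and low in both others. The 5 cells with most UMIs held 75.7% of the mono-IL-10 UMIs, and the share of cells with a UMI at equal depth gave a smaller contrast of 15.6% (11.2 to 20.9), 3.59% (1.65 to 6.70) and 5.94% (3.61 to 9.12), against 0.0585% to 0.573% of macrophage barcodes. The chemokine Ccl3 was at 495, 19.5 and 33.0 CPM (-4.64), with 81.9% of its mono-IL-10 UMIs in 5 cells, and Ccl4 at 1329, 208 and 213 CPM (-2.68, -2.88 to -2.48), with 59.5% in 5 cells. At equal depth Ccl4 was detected in 30.3%, 14.7% and 21.9% of the cells, a smaller contrast, and macrophage barcodes, whose cells express it themselves, held it in 60.7% to 61.3%. Xcl1, which attracts cross-presenting dendritic cells, was at 557, 253 and 357 CPM (-1.14), with 69.5% of its mono-IL-10 UMIs in 5 cells, and Ccl5 at 9984, 11049 and 13554 CPM (0.15).

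A few immediate early and heat shock genes were also far lower with the IL-10/2-Trikine. Jun was at 202, 42.4 and 32.3 CPM (-2.24) and Fos at 191, 32.2 and 49.6 CPM (-2.55), the 2 of 19 T cell receptor response genes that were 2-fold lower (list median -0.23). The heat shock genes Hspa1b at 119, 8.48 and 39.2 CPM (-3.75) and Hspa1a at 79.7, 7.63 and 28.9 CPM (-3.31) were, with Zfp36, the 3 of 15 stress genes that were 2-fold lower, while the median of that list was -0.19, near the -0.07 of all genes. Such genes are also known to be induced by tissue dissociation, and the part of sample handling was not tested. Of the mono-IL-10 UMIs of Fos, Jun, Hspa1b and Hspa1a, 5 cells held 54.7%, 25.8%, 41.9% and 56.1%. In that order the log2 ratios were 0.13, -1.36, -0.80 and -0.33 in Pdcd1+ cells without Tcf7. They were -1.91, -2.64, -4.02 and -3.78 in Tcf7+ cells without Pdcd1. Rgs16 (-1.83) and Gem (-1.51), both early activation genes, and Ifi30 (-1.88, with 85.7% of its mono-IL-10 UMIs in 5 cells) were among the other lowest.

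Interferon-induced genes were lower with the IL-10/2-Trikine, 25 of 26 below 0 and 8 at least 2-fold (median -0.66). MHC class I and guanylate-binding protein genes were below 0 in 28 of 29, but only 2 were 2-fold lower (median -0.40). For comparison, 3583 of all 8378 genes were above 0, and the general T cell genes, all below 0, had a median of -0.30. Isg15, a ubiquitin-like protein induced by type I interferon, was at 156, 57.6 and 178 CPM (-1.43, -1.86 to -1.04). The IL-10/2-Trikine library was the lowest of the 3. Dendritic cell genes moved along, with 5 of 6 at least 2-fold lower (median -1.42) and the sums given above, as did 3 of 5 B cell genes, and their part was not tested.

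Of 17 exhaustion and effector factors, 4 were 2-fold lower and none higher (median -0.52). Id2 was at 943, 447 and 576 CPM (-1.08, -1.23 to -0.93), and Tox differed less, by -0.32 (-0.50 to -0.15). Ikzf2, which encodes Helios, went the other way at 358, 562 and 751 CPM (0.65, 0.48 to 0.82). Havcr2 was at 82.7, 33.9 and 41.3 CPM (-1.27, -1.85 to -0.75), Cd101, a surface mark of terminal exhaustion, at 48.4, 21.2 and 52.3 CPM (-1.17) and Lag3 at 153, 90.7 and 88.8 CPM (-0.76), although over all 15 inhibitory receptors the median was -0.07 with 2 lower.

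None of 14 stem-like factors passed 2-fold (median -0.08), a count close to the share over all genes (1.83% higher and 3.7% lower). Lef1 was at 242, 339 and 260 CPM (0.49, 0.27 to 0.70). Of 14 progenitor surface genes 4 were 2-fold lower (Btla, Xcl1, Cd83 and Il6ra, at -1.88 to -1.14) and none higher, beside 3.7% lower over all genes. Their median was -0.24, and -0.58 to 0.05 over the alternatives, with Slamf6 at 0.43 (0.14 to 0.73). Homing genes were split, with Ccr7 at 0.74 (0.45 to 1.04) and a list median of -0.18. At equal depth Ccr7 was found in 8.66% (5.37 to 13.1), 18.7% (14.1 to 24.1) and 8.75% (5.89 to 12.4) of cells, against 0.234% to 0.601% of macrophage barcodes. Bcl2, which protects T cells from apoptosis, was at 110, 183 and 123 CPM (0.73, 0.42 to 1.04).

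Cytokine receptors and JAK-STAT components had a median of -0.31, with 2 of 21 lower. None of 15 feedback genes passed 2-fold (median -0.19), beside 1.83% higher and 3.7% lower over all genes. The IL-2 receptor chains Il2rb (237, 235 and 295 CPM, -0.01) and Il2ra (58.8, 49.2 and 57.8 CPM, -0.26) differed by less than the counting error. Il10ra was at 58.1, 22 and 32.3 CPM (-1.38, -2.10 to -0.74). S phase (median 0.05) and G2/M genes (0.17) stayed near 0, within a gate that left out cells with 3 or more UMIs of Mki67 and Top2a. Besides the Ly49 genes, Gzma and Ifitm1, the genes named by size on the higher side were Spp1 (5.64), Nrgn (3.33), Ptprk (1.77) and Trit1 (1.45), but each of these 4 was found in 25 or fewer cells of the IL-10/2-Trikine library, 5 of which held 58.8% to 89.0% of its UMIs.

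The last comparison set the combination against the IL-10/2-Trikine alone. It shares the IL-10/2-Trikine library with the previous one, so a value that was extreme in that library appears in both. With the combination, 7 of 26 interferon-induced genes and 6 of 30 MHC class I and guanylate-binding protein genes were at least 2-fold higher, and Ccr7 was at least 2-fold lower. Of 8304 genes, 193 were at least 2-fold higher (2.32%) and 144 at least 2-fold lower (1.73%), and the median over all was 0.01.

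Interferon-induced genes were above 0 in 22 of 26, with 7 at least 2-fold higher and none lower (median 0.56). MHC class I and guanylate-binding protein genes were above 0 in 28 of 30, with 6 at least 2-fold higher (median 0.49). Isg15 was higher by 1.62 (1.23 to 2.03). Gbp6 was at 56.6, 24.6 and 77.1 CPM (1.63, 1.05 to 2.29) and Iigp1, an interferon-γ induced GTPase of cell-autonomous defense, at 25.3, 4.24 and 53.7 CPM (3.53, 2.38 to 5.33), in 15, 4 and 23 cells. B2m, the light chain of MHC class I, differed by 0.24 (0.19 to 0.30). With the combination these 4 genes were above their level with mono-IL-10, but the summed level of the 32 interferon-induced genes was 2081, 1384 and 1967 CPM, highest with mono-IL-10. Cd274, which encodes the PD-1 ligand PD-L1 and is itself induced by interferon-γ, was at 144, 78.8 and 173 CPM (1.13, 0.79 to 1.5). Ifng itself differed by 0.34 (-0.25 to 0.94).

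The other classes of the gate gave the same sign for these lists. For interferon-induced genes the median was 0.59 in Pdcd1+ cells without Tcf7 and 0.18 in Tcf7+ cells without Pdcd1, and the IL-10/2-Trikine relative to mono-IL-10 medians were -0.46 and -0.65. No test compared the classes, so the pattern is not shown to be particular to Tcf7+Pdcd1+ cells.

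Lymph node homing genes were the only list of functional genes besides the STAT5 set, the Ifitm genes and the cell cycle genes with a median below 0 (-0.30, 2 of 10 at least 2-fold lower). Ccr7 was lower by -1.38 (-1.71 to -1.05), and the share of cells with Ccr7 at equal depth went from 18.7% to 8.75%. Slamf6 was lower by -0.44 (-0.73 to -0.15) and Lef1 by -0.38 (-0.59 to -0.18), both near their level with mono-IL-10. As lists the stem-like factors (0 of 14 past 2-fold, median 0.10) and progenitor surface genes (1 of 14 higher, median 0.15) stayed close to all genes.

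Effector genes did not pass 2-fold in any of 18 (median 0.07), a count close to the share over all genes (2.32% higher and 1.73% lower). Gzmb was higher by 0.39 (0.32 to 0.47) and was detected at equal depth in 70.3% against 60.6% of cells, against 12.2% and 7.73% of macrophage barcodes, while Gzma was lower by -0.54 (-0.60 to -0.49). Of 15 inhibitory receptors Cd101 (1.28, 0.64 to 2.02) and Cd274 were 2-fold higher (median 0.26), and Lag3 (-0.03) and Havcr2 (0.28, -0.32 to 0.90) differed by less than the counting error. None of 16 exhaustion factors passed 2-fold (median 0.19), with Tox at -0.08 (-0.26 to 0.10) and Ikzf2 at 0.42 (0.28 to 0.56). Cytokines were 2-fold higher in 2 of 10 (median 0.32), T cell receptor response genes in 0 of 19 (0.19), JAK-STAT components in 1 of 21 (0.33) and feedback genes in 0 of 14 (0.22).

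Among the named genes, Penk, which encodes an opioid peptide precursor, was at 29.1, 0.848 and 72.3 CPM, in 5, 1 and 16 cells, so its ratio rests on few cells. Maf, a transcription factor of IL-10 producing T cells, was at 26.1, 15.3 and 53.7 CPM (1.78, 1.06 to 2.64), and Klhl2, the miR-155 host gene Mir155hg, Jmy, Kansl1l and the growth factor Areg were higher by 1.30 to 1.71, Areg with 71.5% of its combination UMIs in 5 cells. Lower were Spp1, Ptprk, Nrgn, Klra7 (-1.23), Itm2a (-1.39), Cenpv (-1.31) and Il1b (-2.52), the last with 96.3% of its IL-10/2-Trikine UMIs in 5 cells. Trit1 had a log2 ratio of -1.39 in summed UMIs and 0.19 in the mean over cells. Of the immediate early and heat shock genes 2 of 15 were 2-fold higher (median 0.02), Hspa1b by 2.15. Of the other cells' markers 3 of 6 B cell genes, 1 of 5 dendritic cell genes and 1 of 5 CD4 cell genes were 2-fold higher. Of 12 NK cell genes 1 was higher and 2 were lower, of 10 myeloid genes 1 and 1, and of 4 γδ T cell genes 1 was lower.

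**Figure D4:**
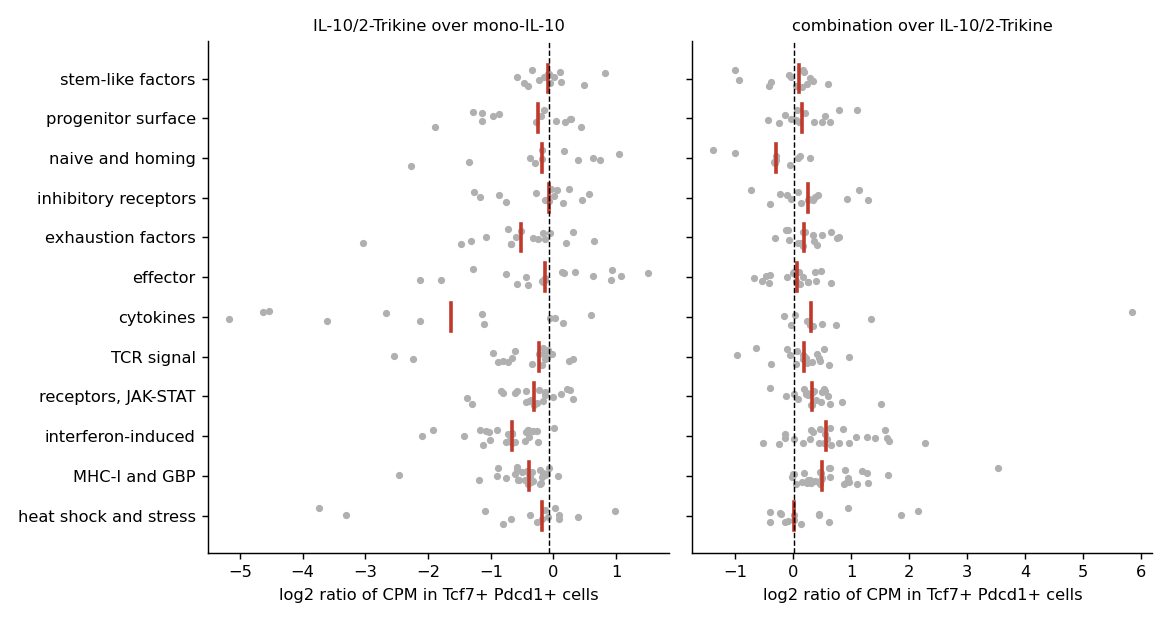
Log2 ratio of CPM in Tcf7+Pdcd1+ cells for the IL-10/2-Trikine relative to mono-IL-10 (left) and the combination over the IL-10/2-Trikine (right), with 1 grey point per gene of 12 lists, red bars for the list medians and a dashed line for the median of all genes. On the left the medians of cytokines (-1.64), interferon-induced genes (-0.66) and exhaustion factors (-0.52) lie lowest, and on the right those of interferon-induced genes (0.56) and MHC class I and guanylate-binding protein genes (0.49) lie highest.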

How the data were processed

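UMI counts per gene and barcode were used as deposited by the authors, who made them with Cell Ranger. The matrix headers name Cell Ranger 8.0.0 and the labels mm10 and 10x 3' v3.1 chemistry, but the study's methods name another version and build, so no coordinates are given. The matrices held all barcodes. Kept barcodes had at least 200 genes and at most 20% mitochondrial UMIs, and they outnumber the cells the study states. Total UMIs were 158570946 (mono-IL-10), 197176873 (IL-10/2-Trikine) and 175794959 (combination). The study's text gives another first dosing day elsewhere. The members and gene lists (17 for results, 8 for cell types) were chosen with earlier results of these data known.

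Shares carry Clopper-Pearson intervals, share ratios log intervals, and CPM ratios (0.5 UMI added) exact conditional binomial intervals, all at 95% and for counting error only. The intervals of CPM ratios take UMIs as independent and leave out their clustering within cells. Genes needed 20 UMIs per pair of libraries, and 2-fold (log2 of 1 or more in size) counted as a difference, without a test. Classes were compared with edgeR 4.0.16 (R 4.3.3) on 9 sums of UMI counts, 3 classes in 3 libraries, with filterByExpr, TMM, class and library terms, the quasi-likelihood test and Benjamini-Hochberg adjustment at 0.05. Genes of the rule were left out, also of the list of 15 T cell genes. Macrophage barcodes had at least 10 C1qa and C1qb UMIs and fewer than 2 of the T cell genes. Genes named were those of the lists plus the 12 highest and lowest per class contrast, passing the test, at 50 CPM or more and in the same direction in 3 libraries, or the 10 highest and lowest per library pair at 50 CPM or more. Mitochondrial, ribosomal, antigen receptor, immunoglobulin, sex-linked and predicted genes were not named this way, and Tnfrsf4 and Bcl2 belong to the lists. Some genes are not reported here. Scripts were tested on simulated data.

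Doublets were not removed in the values reported. The automatic Scrublet threshold called 2782, 0 and 0 barcodes and was replaced, after the data were seen, by the 5% highest scores per library, which took 7, 5 and 5 of the members. Alternatives were DESeq2 1.42.0, other count filters, thinning to 2000 or 1000 UMIs, no doublets, Mki67 and Top2a at 0, at least 2 Tcf7 UMIs, at least 500 genes, no library term and leaving out each library. Thinned values are from 1 random draw per cell. For the share of Tcf7+Pdcd1+ cells with another gene, the cells were chosen before thinning. The gate for resting CD8 cells was likewise applied before thinning. For the shares of cells with both genes, the exact mean over all draws was added, with the mean as the count in its interval.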

Additional observations from a re-analysis of the deposited data

Results flagged for a closer look

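Dendritic cell genes differed between the classes in the IL-10/2-Trikine relative to mono-IL-10 comparison, with a median log2 ratio of -1.42 in Tcf7+Pdcd1+ cells and 0.107 in Pdcd1+ cells without Tcf7, and this difference was not tested.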

How the results depend on the processing

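The ratio of shares of Tcf7+Pdcd1+ cells for the IL-10/2-Trikine relative to mono-IL-10 (2.01, from 1 draw to 2000 UMIs) was 1.48 (0.971 to 2.27) in 1 draw to 1000 UMIs but 2.09 in the exact mean over draws to 1000, and 1.98 in that mean at 2000. Without thinning it was 1.43, 1.36 with at least 2 Tcf7 UMIs, 1.12 (0.938 to 1.33) among all kept barcodes and 1.47 with no limit on Mki67 and Top2a. By the mean over draws it was 1.33 among kept barcodes and 1.54 when the limit on Mki67 and Top2a was also dropped. Without thinning or that limit, the combination over the IL-10/2-Trikine (0.972) was 0.685 among kept barcodes. The mean over draws and the dropped limit were chosen after seeing the data. The counts of genes past 2-fold were set by the count minimum: at 50 UMIs per pair 37 were higher and 96 lower for the IL-10/2-Trikine relative to mono-IL-10 and 62 and 35 for the combination over the IL-10/2-Trikine, and with no minimum 1762 and 2690, and 2139 and 2118. Against Pdcd1+ cells without Tcf7 (489 higher, 498 lower), DESeq2 gave 297 and 268, the fit without a library term 66 and 40, thinning 180 and 236, and no count filter 946 lower. Leaving out 1 library gave 157 to 489 higher and 174 to 455 lower. Against Tcf7+ cells without Pdcd1 (14 higher, 2 lower), DESeq2 gave 24 and 4, no count filter 158 and 161, no library term 1 and 0, thinning 1 and 4, Mki67 and Top2a at 0 gave 5 lower, and leaving out 1 library gave 5 to 16 higher and 1 to 7 lower. Without the IL-10/2-Trikine library these were 5 and 1, and without the mono-IL-10 library 16 and 7. Leaving out a library and thinning leave fewer sums or UMIs, and the cause of the other shifts was not tested. Of all alternatives, 77 gave a count within 1.5 times the reported one or a ratio of shares within its interval, and 39 did not.

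For the IL-10/2-Trikine relative to mono-IL-10 the medians of exhaustion factors, cytokines (-2.15 to -0.32), interferon-induced genes (-0.80 to -0.51) and MHC class I and guanylate-binding protein genes kept their sign in 11 of 11 alternatives, as did interferon-induced genes for the combination (0.29 to 0.75). Some other medians did not: those of progenitor surface, homing, inhibitory receptor, effector, STAT5 and S phase genes crossed 0 in 1 to 3 alternatives, as did those of homing (up to 0.07), effector, Ifitm, S phase, G2/M and immediate early and heat shock genes for the combination. The medians of the stem-like factors, though near 0 (-0.08 and 0.10 in the 2 comparisons), kept their sign in 11 of 11. No paired analysis was possible because each treatment had 1 library and the replicate numbers come from accession order. With 235 to 340 cells and 1 library per treatment, a gene in few cells and the spread between mice could not be assessed.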
